A study of Mus musculus with 83 samples.

Results

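The step from 1 h to 4 h after the ovulatory trigger was followed in vitrified mouse follicles. Its members are 12 libraries, 5 from follicles collected at 1 h and 7 at 4 h, out of 83 in the series. They were chosen by their column names and titles as the vitrified follicles of these 2 times on the plate that fresh follicles shared. Every follicle came from CD-1 wild-type mice, had been cryopreserved by vitrification and was then grown for 8 days inside 0.5% alginate with 10 mIU/ml recombinant FSH. Follicles of 300 to 350 µm were freed from the gel and moved to maturation medium with 1.5 IU/ml hCG, 10 ng/ml EGF, 10 mIU/ml recombinant FSH and 10% fetal bovine serum. Vitrification, culture and hCG with EGF were thus common to both times, which differed in hours of exposure, and the medium supplied EGF receptor ligand from outside. Each library was made from 1 whole follicle, so theca, granulosa, cumulus and oocyte RNA were pooled. The labels used here give neither animals nor cultures for the follicles, and p-values measure the spread between these libraries.

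hCG acts on the luteinizing hormone receptor, LHCGR, in mural granulosa and theca cells and raises cyclic AMP. The signal passes on through EGF-like ligands shed by granulosa cells, which act on EGF receptors of neighbouring and cumulus cells. A burst of short-lived transcription factors is followed by genes for cumulus matrix, prostaglandins, tissue remodelling and progesterone, while the genes of the growing, estrogen-producing follicle are shut off. Fertility preservation by vitrification depends on a stored follicle going through this program after warming, and the comparison asks which of its genes moved between the early and the middle time.

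The libraries of the 2 times differed in depth without overlap. At 1 h the total estimated counts ran from 3478460 to 5597290, and at 4 h from 1750720 to 2981310 (exact two-sided permutation test, adjusted p = 0.0303 over 12 library measures). Genes with a count averaged 14674 ± 660 (SD, n = 5) at 1 h and 13003 ± 515 (n = 7) at 4 h, and 12663 ± 366 against 12275 ± 489 after thinning all libraries to 1 total (exact permutation test, adjusted p = 0.323). Granulosa marker genes took 5.32 to 6.99% of counts at 1 h and 4.99 to 5.83% at 4 h (exact permutation test, adjusted p = 0.0707). 7 of their 8 tested members were lower at 4 h, while Inha was not called. The part of the granulosa share in the results was not tested. Of the oocyte markers 3 passed the count filter and 0 were called, of 11 theca and stroma markers 2 were lower, of 3 endothelial markers 1 was lower (Cldn5, -1.99 ± 0.77, not called with total counts or without any one of the 1 h libraries 3 and 5 or the 4 h libraries 1, 2, 3, 5 and 7), and of the immune markers 1 was tested and higher (Lyz2, 2.50 ± 0.90, not called without any one of the 1 h libraries 1, 2, 3 and 5 or the 4 h library 4). Adgre1 and Alas2 were at 0 in all 12 libraries. As each library is a whole follicle, fewer cells of a type and less RNA per cell cannot be told apart. Each time filled its own plate row, so that time and row cannot be told apart either. The 4 h libraries 1 and 2 were closer to each other than any other pair of the series (chi-square per degree of freedom 1.97, next 4 h pair 12.5) and were kept as 2. The 1 h library 4 stood apart from the other 1 h libraries on the second principal component and had 11.9% of its counts in the predicted gene model Gm10800, against 1.94 to 3.16% in the others.

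Of 7323 genes that passed the filter on low counts, 2015 (27.5%) were higher and 2002 (27.3%) were lower at 4 h than at 1 h, at an edgeR adjusted p of 0.05 or less. Together 54.9% of the genes tested were called, and this share is the background against which each gene group below is read. Levels are given in CPM, counts scaled to a common library size, with edgeR's TMM factors over the 12 libraries, and changes as log2 of the 4 h level over the 1 h level ± SE. The groups did not overlap for 1205 higher genes (16.5%) and 1256 lower genes (17.2%). The calls were close to even, 50.2% higher, whereas limma on the authors' log2(TPM + 1) values called 1865 higher and 1051 lower of 6549 (64.0% higher), and scaling to total counts gave 56.9% higher with a median shift of all genes of 0.14 on the log2 scale. With no filter on low counts 2099 genes were higher and 3055 lower (40.7% higher). Changes reached 2 or more on the log2 scale for 429 higher and 605 lower genes, and 6 or more for 10 and 15. Thinned to 1 total per library, the counts gave 1678 higher and 1592 lower of 5915 genes. With the pair of alike 4 h libraries summed there were 2009 higher and 1959 lower of 7571, and without the 1 h library 4 there were 2072 higher and 2000 lower. The first principal component took 62.8% of the variance and separated the times. Between-library Spearman correlations were 0.852 to 0.932 within 1 h, 0.895 to 0.950 within 4 h and 0.628 to 0.725 across the times.

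Genes were ranked by fold among called genes without overlap between the times and with a mean of at least 20 CPM in the higher group. The one that rose most was Sult1e1 (chr5:87575969-87591594), which encodes the estrogen sulfotransferase that inactivates estradiol. Its levels at 1 h were 7.68, 17.4, 7.07, 10.1 and 13.7 CPM, and at 4 h ran from 3741 to 8576 with a median of 6068. Every 4 h follicle was far above every 1 h follicle, a change of 9.2 ± 0.36 on the log2 scale (588-fold; edgeR adjusted p = 4.48e-11). Tmem26, a transmembrane protein gene on chr10:68723646-68782650, went from a range of 0 to 0.632 CPM to one of 36.2 to 195 with a median of 60.2 (8.22 ± 0.76). It was 1 of 2 tested genes, with Arl4d, that were under 1 CPM in all 1 h libraries and at 10 CPM or more in all 4 h libraries. The reverse held for Ccrl2 and Plekhd1. The other genes with the largest rises by that rule were Runx2, Adcyap1, Alcam and Btc, described below, with Akr1b7 (6.58 ± 0.69), the bHLH factor Msc (5.72 ± 0.53), Shroom4 (5.55 ± 0.35), the proteoglycan gene Sdc1 (5.34 ± 0.23), the BMP-binding Bmper (5.16 ± 0.34) and Steap1 (5.08 ± 0.42). The largest falls were those of Fosb, Cyp19a1, Nr4a2, Inhbb, Gadd45b and Nppc, below, with Ccrl2 (-6.71 ± 0.45), the steroid dehydrogenase gene Akr1c14 (-6.60 ± 0.32), Hsd11b2, which inactivates glucocorticoid (-6.50 ± 0.41), the matricellular Ccn1 (-6.10 ± 0.24), Cbs (-5.97 ± 0.62) and Pacc1 (-5.90 ± 0.31). By gain in mean CPM, a measure that favours long and plentiful transcripts, the genes named were led by the amino acid transporter Slc7a8 (8666 ± 2566 to 28614 ± 3517 CPM, SD over 5 and 7 follicles), Vcan, Abhd2 (1742 ± 638 to 16254 ± 2593) and the epoxide hydrolase Ephx2 (4053 ± 1063 to 13801 ± 2254). The losses included Nr4a1, Gja1, Fat1 (9489 ± 2326 to 1336 ± 375) and Actg1 (11802 ± 1095 to 3439 ± 484, a gene with close copies that counting could split).

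**Figure D1:**
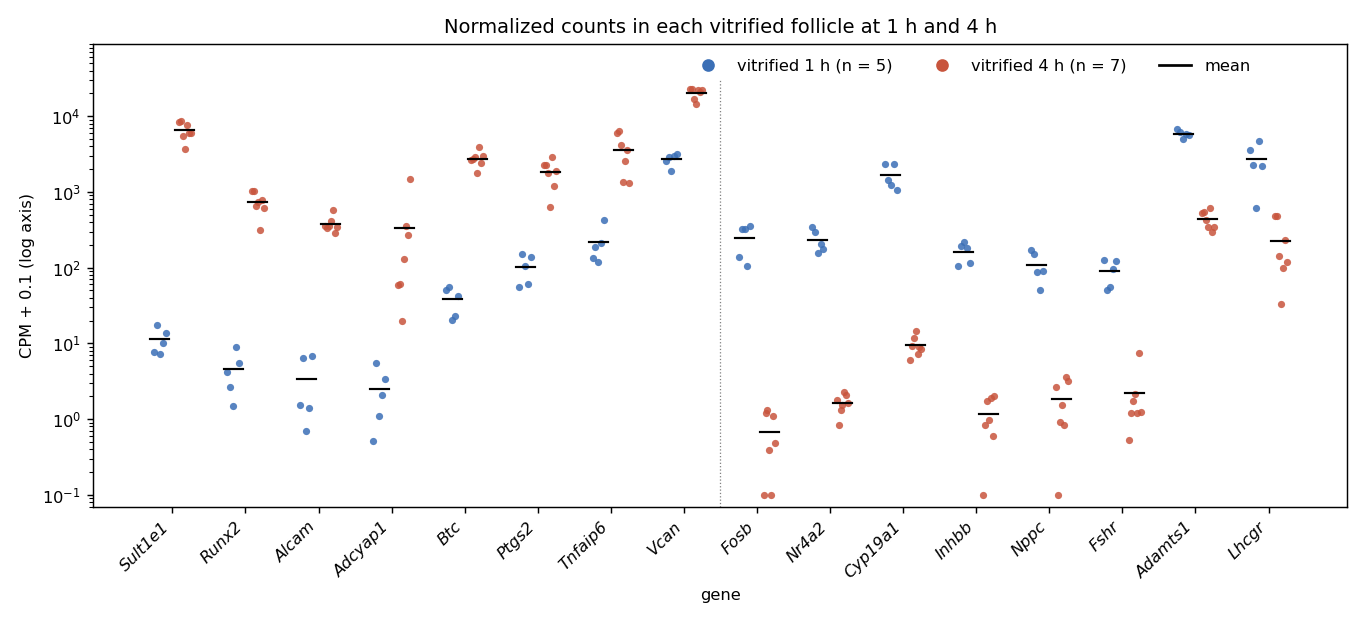
Level of 16 genes in each of the 12 vitrified follicles, in CPM plus 0.1 on a log axis; blue points are the 5 follicles at 1 h, red the 7 at 4 h, and black lines the group means. The 8 genes left of the dotted line were higher at 4 h in every follicle than at 1 h, and the 8 right of it lower in every follicle.

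Among the EGF-like ligands the gene for betacellulin, Btc, rose, the gene for amphiregulin, Areg, fell and the gene for epiregulin, Ereg, was not called. The 3 genes are neighbours on chromosome 5 of GRCm38 (Ereg at chr5:91074622-91093646, Areg at chr5:91139599-91148432 and Btc at chr5:91357261-91402994). Btc measured 50.6, 55.3, 20, 23.2 and 42.8 CPM at 1 h and 1797 to 3932 with a median of 2686 at 4 h (6.17 ± 0.33, 71.8-fold, edgeR adjusted p = 8.64e-10). Every late follicle was above every early one by over 10 times. Areg measured 993, 899, 575, 1074 and 1219.8 CPM at 1 h and 276 to 839.9 with a median of 510.4 at 4 h (-0.78 ± 0.27, edgeR adjusted p = 0.0225). Its groups overlapped, and without the 1 h library 5 the fall was no longer called (-0.69, edgeR adjusted p = 0.059). The Areg call was also lost with limma and in the fit of all 32 libraries of the plate. Ereg ranged over 1752 to 4029.7 CPM at 1 h and 1470.0 to 4575 at 4 h, with a change of 0.30 ± 0.29 (edgeR adjusted p = 0.392). On a per-length scale, TPM, the order at 1 h was Ereg, Areg, Btc, with mean levels of 507 ± 167, 389 ± 134 and 3.13 ± 1.55 TPM. At 4 h the means were 744 ± 245, 252 ± 40.5 and 262 ± 100.4 TPM for Ereg, Btc and Areg, the last pair within each other's SD.

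Downstream of the ligands, the receptor gene Egfr rose from 14.3, 10.8, 25, 17.3 and 21.2 CPM to a range of 19.8 to 65.7 with a median of 34.8 (1.22 ± 0.31, edgeR adjusted p = 0.00332). The groups of Egfr overlapped. Adam17, the sheddase that frees the ligands, fell (-0.79 ± 0.29). Its call was lost without the 1 h library 3 (-0.48) and without the 4 h library 1, 2 or 3 (-0.71 to -0.72). Adam17 was not called with total counts, with limma or with the alike 4 h libraries summed either. Negative feedback genes of the ERK cascade moved both ways. Dusp6 (2.10 ± 0.21) and Spred2 (2.40 ± 0.39) rose, the immediate phosphatase Dusp1 fell (-2.92 ± 0.19), and the receptor inhibitor Errfi1 had a change of 0.11 ± 0.29 that was not called. Hbegf was under the filter (3.91 to 9.58 CPM at 1 h and 0 to 0.872 at 4 h). In all, 6 of the 14 tested members of the list were higher and 3 lower, with 5 lower without the 1 h library 4, and the median was 0.26.

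The upstream sequence of Areg is shown because a cyclic AMP response element lies in it. The 250 bases before its RefSeq start on the plus strand of GRCm38.p6 (chr5:91139349-91139598), with the element TGACGTCA in capitals 61 bases before the start, read as follows.
Areg: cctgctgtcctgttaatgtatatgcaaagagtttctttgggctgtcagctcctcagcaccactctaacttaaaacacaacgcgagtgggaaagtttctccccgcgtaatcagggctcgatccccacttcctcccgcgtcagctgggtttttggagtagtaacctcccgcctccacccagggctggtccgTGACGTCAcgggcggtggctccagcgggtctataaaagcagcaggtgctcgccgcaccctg
The same 8 letters were found on either strand in 4.31% of 1485 called lower genes with a RefSeq promoter, in 1.41% of 1558 called higher genes, in 3.28% of 5278 tested genes and in 1.77% of all 27025 promoters. The shorter core TGACG, a set of matches that includes the full element, was in 12 of 16 immediate early genes that fell and in 33.4% of tested genes. These are letter matches and were not tested as binding sites.

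The receptor gene Lhcgr measured 3608, 2278, 619, 4762 and 2199 CPM at 1 h and 32.6 to 487 with a median of 143 at 4 h (-3.57 ± 0.67, edgeR adjusted p = 7.06e-04). No 4 h follicle reached the lowest 1 h follicle, and within each time the follicles differed several times over. With the 9 libraries of 1 h on the other plate in place of the 5, the change was -2.18. Of 17 tested members of the cyclic AMP pathway 11 fell and 2 rose (median -1.46, and -0.74 without the 1 h library 4). The falls included the regulatory subunit genes Prkar1a (-0.55 ± 0.12) and Prkar2b (-4.99 ± 0.77, and -3.55 without the 1 h library 4). Also lower were the phosphodiesterase genes Pde4d (-1.32 ± 0.27), Pde7b (-4.48 ± 0.31) and Pde10a (-1.46 ± 0.27). Crem (-2.96 ± 0.21) and the CREB-coactivator kinase gene Sik1 (-1.92 ± 0.28) fell too. The rises were those of Creb1 (2.14 ± 0.33) and Adcyap1 (chr17:93199017-93206537), which encodes the peptide PACAP, itself an activator of adenylyl cyclase. Adcyap1 measured 0.415, 5.38, 1.01, 1.96 and 3.25 CPM at 1 h and 59.3, 61.2, 19.6, 129, 356, 268 and 1465 CPM in the 7 follicles at 4 h (7.17 ± 1.32, edgeR adjusted p = 6.55e-04). The 4 h values spanned 19.6 to 1465 CPM, all above those at 1 h, and the change was 6.0 without the highest of them, the 4 h library 7. Its receptor gene Adcyap1r1 was too low to test (0 to 1.01 and 0.424 to 5.53 CPM).

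Immediate early genes, which are switched on within minutes of a signal and many of which encode transcription factors, were mostly lower. Of 22 tested members 18 fell and 2 rose, with a median of -2.99. Fosb (chr7:19302696-19310051), an AP-1 subunit gene, measured 137, 329, 320.3, 104 and 354 CPM at 1 h and 0 to 1.23 with a median of 0.381 at 4 h (-8.73 ± 0.51, edgeR adjusted p = 7.44e-09). At 4 h it was close to undetected. The 3 orphan nuclear receptor genes fell to different levels. Nr4a1 measured 24192, 23596, 22594, 26543 and 19966 CPM at 1 h and 1824 to 3933 with a median of 3296 at 4 h (-2.89 ± 0.17). Nr4a2 went from 343, 292, 154, 203 and 178 CPM to a range of 0.737 to 2.18 with a median of 1.52 (-7.22 ± 0.28), and Nr4a3 fell by 5.22 ± 0.33. Jun (-4.11 ± 0.20), Junb (-3.16 ± 0.19), Fos (-3.42 ± 0.22), Atf3 (-5.02 ± 0.25) and Klf4 (-5.63 ± 0.38) fell too. Egr1 fell by 0.82 ± 0.17, whereas Egr3 rose by 0.60 ± 0.20. The Egr3 call was lost without the 1 h library 3 (0.50), without a low-count filter and against the other plate's 1 h libraries. The AP-1 subunit gene Fosl1 rose from a range of 4.11 to 25.5 to one of 30.5 to 148 CPM (2.54 ± 0.55). Myc (-0.50 ± 0.22) and Zfp36 (0.02 ± 0.29) were not called.

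The transcription factors known to carry the ovulatory program were divided, 6 of 17 tested higher and 6 lower, with a median of -0.43 that was 0.07 without the 1 h library 4. The progesterone receptor gene Pgr, which ovulation requires, measured 1803, 2732, 1342, 2668 and 2521 CPM at 1 h and 4799 to 7302 with a median of 6316 at 4 h (1.52 ± 0.19, edgeR adjusted p = 5.46e-06). It was already high at 1 h, and no follicle of one time entered the range of the other. Runx2 (chr17:44495987-44814797), whose product acts in the change from granulosa to luteal cells, measured 4.15, 2.53, 1.41, 8.81 and 5.48 CPM at 1 h and 313 to 1031 with a median of 737 at 4 h (7.38 ± 0.48, edgeR adjusted p = 2.05e-08). Runx1 measured 13.9, 37.6, 40, 78.6 and 106 CPM and 847 to 1671 with a median of 1300.5 (4.55 ± 0.44), so that it was detected in every follicle at 1 h. Cbfb, the partner subunit of both, had a change of -0.43 ± 0.50 that was not called. Pparg (3.22 ± 0.37), Zbtb16 (2.89 ± 0.39) and the hypoxia factor gene Hif1a (1.39 ± 0.21) rose. The nuclear receptor coregulator gene Nrip1 (-2.93 ± 0.42) fell. Cebpa fell by 2.77 ± 0.71, and by 1.44 without the 1 h library 4, where it stood at 77.9 CPM against 5.60 to 12.3 in the other 1 h follicles. Cebpb was under the filter, at 0 to 165 CPM at 1 h with its highest value again in library 4, and 0 to 1.7 at 4 h.

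All 15 tested effector genes of ovulation were called, 10 higher and 5 lower, with a median of 3.00. Without the 1 h library 4 there were 9 higher and 4 lower of 15. Against the 1 h libraries of the other plate 9 were higher and 2 lower of 13. The adhesion molecule gene Alcam (chr16:52248996-52454074) measured 1.45, 6.32, 0.606, 1.3 and 6.67 CPM at 1 h and 287 to 582 with a median of 352 at 4 h (6.85 ± 0.53, edgeR adjusted p = 1.94e-07). The sphingosine kinase gene Sphk1 (4.21 ± 0.47), the metallothionein gene Mt2 (4.02 ± 0.45), the collagen crosslinking gene Lox (3.0 ± 0.41), the Wnt inhibitor gene Sfrp4 (3.05 ± 0.46) and the chemokine receptor gene Cxcr4 (2.59 ± 0.50) rose as well. Edn1, the endothelin 1 gene, fell (-3.55 ± 0.48), and Edn2, the endothelin made at follicle rupture, was under the filter at both times (0.978 to 5.65 and 0 to 1.11 CPM). The angiogenic gene Vegfa fell by 1.62 ± 0.52, a call that was lost without the 1 h library 4 (-0.89). Rgcc (-2.76 ± 0.21), Gclc (-1.33 ± 0.35) and the steroid-responsive gene Fkbp5 (-1.02 ± 0.24) were lower, and the last was not called against the 1 h libraries of the other plate.

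Genes of the expanding cumulus matrix and of prostaglandin production mostly rose, 6 of 11 tested with 3 lower and a median of 1.91. Ptgs2 (chr1:150100031-150108227), the inducible cyclooxygenase, measured 54.8, 152, 105, 61.3 and 139 CPM at 1 h and 643 to 2923 with a median of 1872 at 4 h (4.17 ± 0.42, edgeR adjusted p = 2.01e-06). The prostaglandin transporter gene Slco2a1 rose (1.91 ± 0.47), while the prostaglandin E synthase gene Ptges (-3.93 ± 0.35) and the receptor gene Ptger4 (-2.94 ± 0.20) fell. Tnfaip6, which links hyaluronan to heavy chains of inter-alpha-inhibitor, measured 133, 188, 119.6, 212 and 424 CPM and 1309 to 6290.3 with a median of 3573 (4.07 ± 0.53, edgeR adjusted p = 3.17e-05). Vcan (chr13:89655312-89742509), the versican gene, measured 2565, 2932, 1870.2, 2942 and 3190.0 CPM and 14638 to 23105 with a median of 22102 (2.92 ± 0.18). The hyaluronan receptor gene Cd44 rose by 3.67 ± 0.67. The pentraxin gene Ptx3 measured 1.45, 1.26, 6.66, 31 and 4.28 CPM and 3.26 to 123 with a median of 57.5 (2.64 ± 0.94, edgeR adjusted p = 0.0314). This rise was 3.92 without the 1 h library 4 and was no longer called without the 1 h library 1, 2, 3 or 5 or the 4 h library 3 or 6 (2.31 to 2.54). Has2, the hyaluronan synthase, was low and not called (3.26 to 13.6 and 3.47 to 12.7 CPM, -0.36 ± 0.38), though it was called lower against the 1 h libraries of the other plate (-0.76).

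Proteases and their inhibitors were split evenly, 7 higher and 7 lower of 19 tested (median -0.35). Adamts1, which cleaves versican and is a known target of PGR, measured 6687, 6206, 5074, 5775 and 5719.6 CPM at 1 h and 294 to 609 with a median of 424 at 4 h (-3.74 ± 0.19, edgeR adjusted p = 4.08e-10). The lowest early follicle was over 8 times the highest late one. Adamts5 (-2.35 ± 0.32) and Mmp11 (-2.90 ± 0.44) fell with it. Adamts9 rose by 1.01 ± 0.29 and was not called against the 1 h libraries of the other plate. Adamts4 rose by 2.42 ± 0.84 and lost its call without the 1 h library 1, 2 or 4 or the 4 h library 4 or 5 (2.08 to 2.47). That call was also lost with limma, without the filter on low counts and against the 1 h libraries of the other plate. The urokinase gene Plau (1.85 ± 0.24), the cathepsin gene Ctsl (1.50 ± 0.19) and the metalloproteinase inhibitor gene Timp1 (3.44 ± 0.24) rose. Serpinb2 rose from 0 CPM in 4 of the 1 h follicles and 0.949 in the fifth to a range of 2.46 to 17 with a median of 5.53 CPM (5.53 ± 0.82, and 7.80 without the 1 h follicle above 0, library 2). Tissue plasminogen activator, Plat, was not called (7.02 to 14.3 and 5.16 to 14.4 CPM).

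Most genes of the estrogen-producing follicle fell. Of 21 tested members of the list of estradiol synthesis and FSH-dependent granulosa genes, 16 were lower and 2 higher, with a median of -2.43. Cyp19a1 (chr9:54165937-54268110), which encodes aromatase, measured 2354, 1461, 1237, 2337 and 1056 CPM at 1 h and 5.93 to 14.5 with a median of 8.92 at 4 h (-7.47 ± 0.29, edgeR adjusted p = 4.48e-11, a 177-fold fall). Hsd17b1, the next enzyme towards estradiol, measured 1817, 2527, 2553, 1416 and 2206 CPM and 15.1 to 80.2 with a median of 42.4 (-5.64 ± 0.40). Neither enzyme gene overlapped between the times. The FSH receptor gene Fshr measured 128, 51.2, 56.1, 97.2 and 124 CPM and 0.424 to 7.43 with a median of 1.14 (-5.48 ± 0.47), and the change was -6.13 without the 4 h library 6, the highest at 4 h. The estrogen receptor genes Esr2 (-2.0 ± 0.42) and Esr1 (-2.89 ± 0.47), the FSH-regulated Foxo1 (-4.75 ± 0.67), Nr5a2 (-4.22 ± 0.18), the estrogen-responsive Greb1 (-2.43 ± 0.15) and the anti-Müllerian hormone receptor gene Amhr2 (-3.76 ± 0.30) were lower. Amh was at 0 in 11 of the 12 libraries, and Foxl2 was under the filter (2.63 to 11.7 and 0 to 3.47 CPM). Nr5a1, encoding steroidogenic factor 1, was higher (1.06 ± 0.19), as was Igf1r (0.90 ± 0.20).

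The subunits of inhibin and activin went different ways. Inha, the shared alpha subunit of inhibin, stood at 36462 ± 4589.8 CPM at 1 h and 36203 ± 3317 at 4 h (-0.01 ± 0.12, edgeR adjusted p = 0.952). The beta B gene Inhbb (chr1:119415465-119422248) measured 105, 194, 219.5, 184 and 115 CPM and 0 to 1.9 with a median of 0.872 (-7.19 ± 0.37, edgeR adjusted p = 5.11e-10), and the beta A gene Inhba fell by 0.75 ± 0.15. Fst, the activin-binding follistatin gene, fell by 4.92 ± 0.93, and by 2.55 without the 1 h library 4, where it was the highest. Among receptors and regulators of activin, BMP and TGF-beta signalling 8 of 18 tested were lower and 3 higher (median -0.94), with falls of the receptor genes Bmpr1b (-3.89 ± 0.28) and Tgfbr3 (-3.79 ± 0.24), and rises of Bmp6 (3.81 ± 0.56, and 4.79 without the 1 h library 1), Smad5 (1.53 ± 0.24) and Smad3 (1.17 ± 0.22). Of 10 tested cumulus genes known to answer to oocyte factors, 3 fell, among them Kitl (-4.10 ± 0.50) and Id3 (-3.53 ± 0.17), and 1 rose, Id1 (1.02 ± 0.32). The other 6 were not called, and the share that fell was near the 27.3% of all tested genes.

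All 6 tested genes of meiotic arrest and gap junctions fell (median -2.44). C-type natriuretic peptide, the product of Nppc (chr1:86666291-86670571), and its receptor NPR2 raise cyclic GMP, which passes through gap junctions and keeps the oocyte arrested. Nppc measured 170.4, 151, 86.4, 50.2 and 90.4 CPM at 1 h and 0 to 3.47 with a median of 1.45 at 4 h (-6.01 ± 0.48, edgeR adjusted p = 1.68e-07). Npr2 measured 50, 71.5, 75.1, 68.2 and 53 CPM and 2.58 to 12.3 with a median of 6.78 (-3.17 ± 0.26). Gja1, the connexin 43 gene, measured 28519, 34461, 30368, 26275 and 26047 CPM and 8190.4 to 11918 with a median of 10564 (-1.48 ± 0.13). Impdh2, an enzyme of guanine nucleotide synthesis (-1.91 ± 0.16), Gucy1a1 (-2.10 ± 0.36) and Gpr3 (-2.77 ± 0.39), whose product keeps cyclic AMP up in the oocyte, were lower.

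Progesterone synthesis and luteal genes were mostly lower, 12 of 17 tested with 3 higher and a median of -0.92. Star, which brings cholesterol to the mitochondrial inner membrane, fell by 0.66 ± 0.23 and lost its call without the 1 h library 1 (-0.46). Star was not called with limma or in the fit of all 32 libraries of the plate either. Cyp11a1, the side-chain cleavage enzyme, measured 7386, 3871, 1855, 1388 and 1332 CPM at 1 h and 3480.4 to 6772 with a median of 4718 at 4 h (0.64 ± 0.39, edgeR adjusted p = 0.181). Cyp11a1 was not called by edgeR with all libraries but was called with limma. Without the 1 h library 1 it rose by 1.23 (edgeR adjusted p = 0.0019). Hsd3b1, which makes progesterone, fell by 1.49 ± 0.17, and the adrenodoxin gene Fdx1 by 1.2 ± 0.13, while its reductase gene Fdxr rose by 0.91 ± 0.22. Of the cholesterol-handling genes, the efflux pump gene Abca1 rose (2.97 ± 0.23) and the esterifying enzyme gene Soat1 fell (-2.70 ± 0.23), as did the receptor gene for prostaglandin F2alpha, Ptgfr (-3.03 ± 0.54). The lipoprotein receptor gene Scarb1 rose by 1.16 ± 0.41. It had 13387 CPM in the 4 h library 7 against 2865 to 3608 in the other 4 h follicles. Its call was lost without the 1 h library 1, 2, 4 or 5 (1.06 to 1.16). The same held without the filter on low counts and against the 1 h libraries of the other plate. Cyp17a1, a theca enzyme gene, fell by 2.77 ± 0.58 and was not called against the 1 h libraries of the other plate (-1.93).

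Most genes of cholesterol synthesis fell. All 26 members were tested, 23 were lower, 1 was higher and 2 were not called, with a median of -1.76. The synthase gene Hmgcs1 measured 1119, 1369.9, 746, 717 and 601 CPM at 1 h and 106 to 305 with a median of 224 at 4 h (-2.11 ± 0.27, edgeR adjusted p = 1.13e-05). Its levels did not overlap between the times. Mvk (-3.80 ± 0.37), Pmvk (-2.90 ± 0.37) and Idi1 (-2.59 ± 0.33), which follow in the mevalonate route, fell, while Mvd between them was not called (-0.76 ± 0.49). Of the sterol-forming enzyme genes, Cyp51 fell (-1.41 ± 0.33), and Sqle fell (-1.02 ± 0.24) but was not called against the 1 h libraries of the other plate (-0.49). Of the regulators, Insig1 was lower (-2.18 ± 0.24), Srebf1 fell by 0.77 ± 0.17 and Srebf2 was not called (-0.21 ± 0.17). The gene called higher was Ggps1 (1.18 ± 0.28), whose product directs the pathway to geranylgeranyl groups and not to sterol.

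The sequence before Hmgcs1 is printed because it holds a letter match to the sterol response element among the cholesterol genes that fell. The 250 bases before its RefSeq start on the plus strand of GRCm38.p6 (chr13:119690101-119690350), with the match to TCACNCCAC in capitals 137 bases before the start, read as follows.
Hmgcs1: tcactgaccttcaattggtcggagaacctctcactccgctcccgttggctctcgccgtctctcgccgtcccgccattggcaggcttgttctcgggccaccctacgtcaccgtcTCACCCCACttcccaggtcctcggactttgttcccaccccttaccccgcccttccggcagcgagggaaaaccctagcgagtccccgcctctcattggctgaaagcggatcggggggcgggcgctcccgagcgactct
This pattern was in 1 of 16 cholesterol genes that fell and have a RefSeq promoter, in 1.35% of tested genes, in 1.62% of called lower and in 1.28% of called higher genes. TGTGGT, the core letters bound by RUNX factors, were in 11.3% of called higher genes, 10.8% of called lower genes and 11.4% of tested genes, both strands searched.

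Protein folding genes of the endoplasmic reticulum fell, 16 of 20 tested with 0 higher (median -1.13). Herpud1 (-3.98 ± 0.25), Dnajb9 (-2.76 ± 0.23) and Sdf2l1 (-2.63 ± 0.41) fell most, Xbp1 by 1.12 ± 0.18 and the chaperone gene Hspa5 by 0.62 ± 0.14. The Hspa5 call was lost with limma. The amino acid supply genes that ATF4 is known to induce went the other way, 16 of 22 tested higher and 3 lower (median 1.33). Psat1 (chr19:15904678-15947337), of serine synthesis, measured 6.23, 18.7, 18.2, 8.48 and 11.3 CPM at 1 h and 155 to 459 with a median of 326 at 4 h (4.59 ± 0.38, edgeR adjusted p = 1.85e-07), and the asparagine synthetase gene Asns measured 8.72, 7.27, 16.6, 5.22 and 7.36 CPM and 75 to 213 with a median of 94.1 (3.74 ± 0.36). Both were higher in every follicle at 4 h. Phgdh (2.69 ± 0.30), Slc7a11 (2.68 ± 0.32) and 8 aminoacyl-tRNA synthetase genes were among those that rose. Atf4 itself fell by 0.42 ± 0.14, a call lost with total counts (-0.30) and with limma (-0.16). It was lost too in the fit of all 32 libraries of the plate (-0.44). Slc38a2 fell by 1.13 ± 0.17 and Slc7a1 by 0.65 ± 0.24. The Slc7a1 call was lost without any one of 8 single libraries (1 h libraries 1, 2 and 4, 4 h libraries 3 to 7). Total counts, limma and the 1 h libraries of the other plate did not give that call either. Chac1 was not called (-0.43 ± 0.66) and Trib3 was under the filter.

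In the heat shock list 6 genes rose and 5 fell of 16 tested (median 0.07). Hspa1a measured 12.2, 9.8, 22.8, 7.5 and 21 CPM at 1 h and 0 in all 7 follicles at 4 h, at least 12.5-fold lower with 3 counts per library as the floor. Hspa1b, a near-identical copy between which and Hspa1a reads could be split, fell as well (-5.19 ± 0.52, and -6.06 without the 4 h library 3). Hsph1 (3.52 ± 0.29), the factor gene Hsf1 (2.40 ± 0.17) and Chordc1 (1.87 ± 0.21) rose. Of p53 targets and apoptosis genes 10 of 15 tested were lower and 0 higher (median -0.70, and -1.14 without the 1 h library 4 and -1.49 on thinned counts). Gadd45b (-6.46 ± 0.35), Gadd45g (-4.84 ± 0.48, and -5.64 without the 4 h library 5) and Plk2 (-4.27 ± 0.21) fell, and Cdkn1a was not called (0.30 ± 0.21) except against the 1 h libraries of the other plate (0.57). Of 20 tested oxidative stress genes 9 fell and 5 rose. Srxn1 fell by 4.08 ± 0.43 (-3.48 without the 1 h library 4), the catalase gene Cat by 2.45 ± 0.41 and Gpx3 by 2.21 ± 0.31, the last not called against the 1 h libraries of the other plate (-0.46), whereas Mgst1 (2.99 ± 0.22), Nfe2l2 (2.05 ± 0.24) and the thioredoxin gene Txn1 (2.01 ± 0.19) rose.

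Genes that build ribosomes rose, whereas the ribosomal proteins themselves were mostly not called. Of 27 tested ribosome biogenesis genes 21 were higher and 1 lower, Nop58 (-1.0 ± 0.20), with a median of 1.16. Wdr12 (3.11 ± 0.52), Nop2 (2.50 ± 0.34) and Bysl (2.25 ± 0.54) rose most among those named. Of 53 cytosolic ribosomal protein genes 2 were higher and 3 lower, their median was -0.09 and the times overlapped in all 53. That median was 0.04 with total counts and 0.16 with limma, and without the 1 h library 4 there were 1 higher and 8 lower. Against the 1 h libraries of the other plate 4 were higher and 17 lower. These genes have many processed copies, among which reads could be split. Of 31 proteasome subunit genes 14 were higher and 1 lower (median 0.38), and without the 1 h library 4 there were 10 higher and 4 lower. Of 39 tested oxidative phosphorylation genes 19 fell and 4 rose (median -0.57), with falls of Ndufa10 (-2.12 ± 0.27), Ndufs3 (-2.08 ± 0.19) and Atp5c1 (-1.94 ± 0.13), and rises of Ndufa4 (1.16 ± 0.21) and Cox5a (1.05 ± 0.16).

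Among glycolysis and hypoxia genes 9 of 22 tested fell and 3 rose. The glucose transporter gene Slc2a1 measured 74.9, 61.7, 29.7, 31 and 40.4 CPM at 1 h and 179 to 455 with a median of 325 at 4 h (2.67 ± 0.31, edgeR adjusted p = 4.02e-06). The lactate transporter gene Slc16a1 (-3.33 ± 0.25), Pdk1 (-2.87 ± 0.43) and Bnip3 (-1.86 ± 0.52) fell. Pfkp (0.41 ± 0.20) and Pfkfb3 (-0.46 ± 0.31) were not called with TMM scaling of all libraries. Pfkp was called without the 4 h library 6 (0.50), with total counts and against the 1 h libraries of the other plate. Pfkfb3 was called without the 4 h library 5 (-0.74). In polyamine metabolism 5 of 9 tested genes rose, including Sat1 (3.37 ± 0.30), Sms (2.26 ± 0.33) and Srm (1.66 ± 0.23), and 1 fell, the antizyme inhibitor gene Azin1 (-2.12 ± 0.28). Odc1, the first enzyme of the pathway, measured 72, 38.9, 30.5, 1425 and 83.7 CPM at 1 h and 63.8 to 903 with a median of 415 at 4 h (0.52 ± 1.01, edgeR adjusted p = 0.692). It was not called with all libraries and rose by 3.05 without the 1 h library 4 (edgeR adjusted p = 0.0054), whose value was over 10 times that of any other 1 h follicle.

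Cell cycle genes were mostly lower or not called, 11 lower and 2 higher of 22 tested, with falls of Ccnb2 (-3.55 ± 0.49), Mcm2 (-2.50 ± 0.44) and Mcm3 (-2.08 ± 0.40) and a rise of Ccnd3 (0.95 ± 0.22). Without the 1 h library 4 there were 13 lower and 1 higher. Basement membrane and collagen genes were lower or not called, 10 lower and 1 higher of 24 (median -1.21). Lama1 (-2.66 ± 0.26) and Col6a3 (-1.90 ± 0.44) fell, Fras1 rose (1.71 ± 0.27), and Col4a1 varied several times over within each time (67.4 to 571 and 19.9 to 343 CPM). Of 24 tested cytoskeleton and adhesion genes 10 rose and 6 fell, Alcam and the integrin gene Itga5 (2.73 ± 0.26) among the former and Cnn2 (-2.44 ± 0.43) among the latter. The vesicle transport list had 6 higher and 1 lower of 16, with Snap23 (1.02 ± 0.33, lost without the 1 h library 3 at 0.85) and Stx4a (1.37 ± 0.49, 2.06 without the 1 h library 1 and lost without the 1 h library 2, 3 or 5) higher.

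In the list of NF-kB and inflammatory genes 6 of 14 tested were lower and 4 higher. The inhibitor genes Nfkbia (chr12:55489410-55492647; 16.2, 7.59, 15.8, 12.7 and 14 CPM at 1 h and 92.9 to 139 with a median of 116 at 4 h, 3.09 ± 0.21) and Nfkbib (2.24 ± 0.33) rose, with the oncostatin M receptor gene Osmr (3.96 ± 0.58). The subunit gene Rela (-1.83 ± 0.49, and -1.22 without the 1 h library 4) and the cytokine receptor gene Lifr (-1.43 ± 0.26) fell. The Rela call was lost with limma. Tnfaip3 fell by 1.63 ± 0.54 and lost its call without the 1 h library 2 (-0.75). It was not called with limma or against the 1 h libraries of the other plate either. The cytokine genes Il6 and Lif were under the filter, at most 1.81 and 1.7 CPM in any follicle. Of Wnt genes 3 of 10 tested rose, Sfrp2 (3.63 ± 0.40), Sfrp4 and Tcf7l2 (2.49 ± 0.21). The receptor gene Fzd4 fell (-5.22 ± 0.44, and -5.89 without the 4 h library 4). The other 6 Wnt genes were not called, and the share that rose was near the 27.5% of all tested genes. Clock and steroid-responsive genes were 6 lower and 2 higher of 13, with falls of Per2 (5.6, 7.27, 7.47, 10.8 and 11.3 CPM at 1 h, 0 in 6 of the 7 follicles at 4 h and 0.761 in the other) and Cry2 (-3.88 ± 0.23) and a rise of Klf15 (2.81 ± 0.61, and 3.42 without the 1 h library 5), and Per1 was not called (0.11 ± 0.22) except against the 1 h libraries of the other plate (0.82).

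Some of these counts moved by over 1.5 times when the 9 libraries of 1 h on the other plate stood in for the 5. There 17 of 24 collagen and basement membrane genes were lower, 11 of 25 cytoskeleton genes were lower and 8 higher, 4 of 20 glycolysis genes were lower, and 4 of 17 proteases were higher and 5 lower. Theca and stroma markers were lower for 7 of 12. The EGF list had 5 lower with a median of -0.26, the cyclic AMP list a median of -0.70, and the cumulus matrix list 5 lower with a median of 1.02. The p53 list had 10 lower and 2 higher of 13 with a median of -1.72. In other fits, 9 clock and steroid-responsive genes were lower with the alike libraries summed, and on thinned counts 3 of 11 vesicle transport genes were higher and 0 lower. With limma 9 of 37 oxidative phosphorylation genes (median -0.22) and 4 of 16 cell cycle genes (median -0.31) were lower. The limma fit also had 3 of 13 collagen and basement membrane genes and 2 of 14 NF-kB and inflammatory genes lower.

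**Figure D2:**
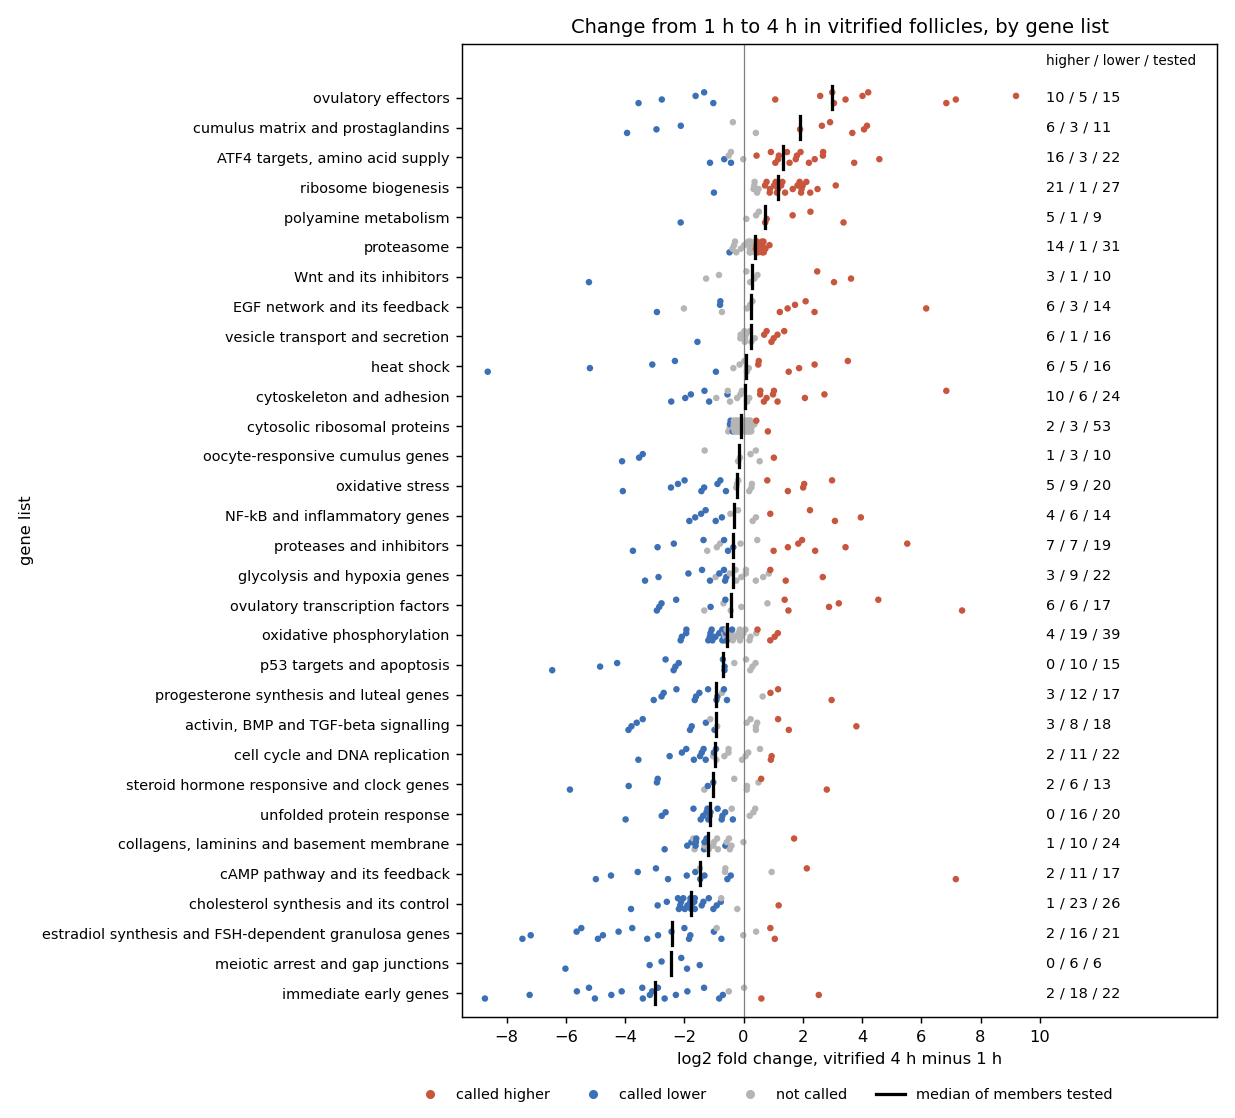
Change from 1 h to 4 h (log2, edgeR) of each tested member of the gene lists, one row per list; red, blue and grey points are members called higher, lower or not called, black bars are list medians and the text at the right gives members higher, lower and tested. Ovulatory effectors and ribosome biogenesis lie mostly right of 0, and immediate early, estradiol and cholesterol genes mostly left of it.

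Set in the longer course of vitrified follicles, several genes that rose from 1 h to 4 h had lower means at 8 h. The levels below are means ± SD with all 83 libraries scaled together, from 15 follicles at 0 h, 5 at 1 h, 7 at 4 h and 3 at 8 h. The 0 h follicles were on another plate, so that the step from 0 h cannot be told apart from the plate, and no test was made of these steps. Sult1e1 stood at 0.113 ± 0.437, 14.8 ± 5.6, 8309.9 ± 2398 and 164 ± 133 CPM at 0, 1, 4 and 8 h. Ptgs2 stood at 0.0495 ± 0.106, 137 ± 59.7, 2349.5 ± 1017 and 23.5 ± 8.01 CPM and Btc at 0.196 ± 0.265, 51.3 ± 22, 3498 ± 906 and 71.5 ± 54.5 CPM. These 3 were highest at 4 h. Pgr was highest at 4 h as well, at 0.952 ± 1.02, 2917 ± 700.4, 8011 ± 1293 and 33.6 ± 38.2 CPM. Runx2 differed, at 2.61 ± 1.23, 5.8 ± 3.39, 930.2 ± 319.7 and 1448 ± 837 CPM, with an 8 h mean as high as the 4 h mean or above it. Nr4a1 was highest at 1 h, at 161 ± 236, 31073 ± 2731, 3978 ± 919 and 312 ± 129.8 CPM, and Areg likewise at 0.178 ± 0.287, 1259 ± 294, 704 ± 298 and 25.8 ± 31.8 CPM. Cyp19a1 was lower at 4 h than at 0 h, at 295 ± 104, 2236 ± 781, 11.9 ± 3.71 and 3.33 ± 2.92 CPM. Inha, level between 1 h and 4 h, was lower at 8 h, at 38004 ± 6917, 48488 ± 6041, 45851 ± 5571 and 13245 ± 1172 CPM. Nfkbia was lower at 1 h than at 0 h and then higher at each later time, at 66.3 ± 18, 17.8 ± 5.22, 144 ± 24.5 and 395 ± 243 CPM.

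**Figure D3:**
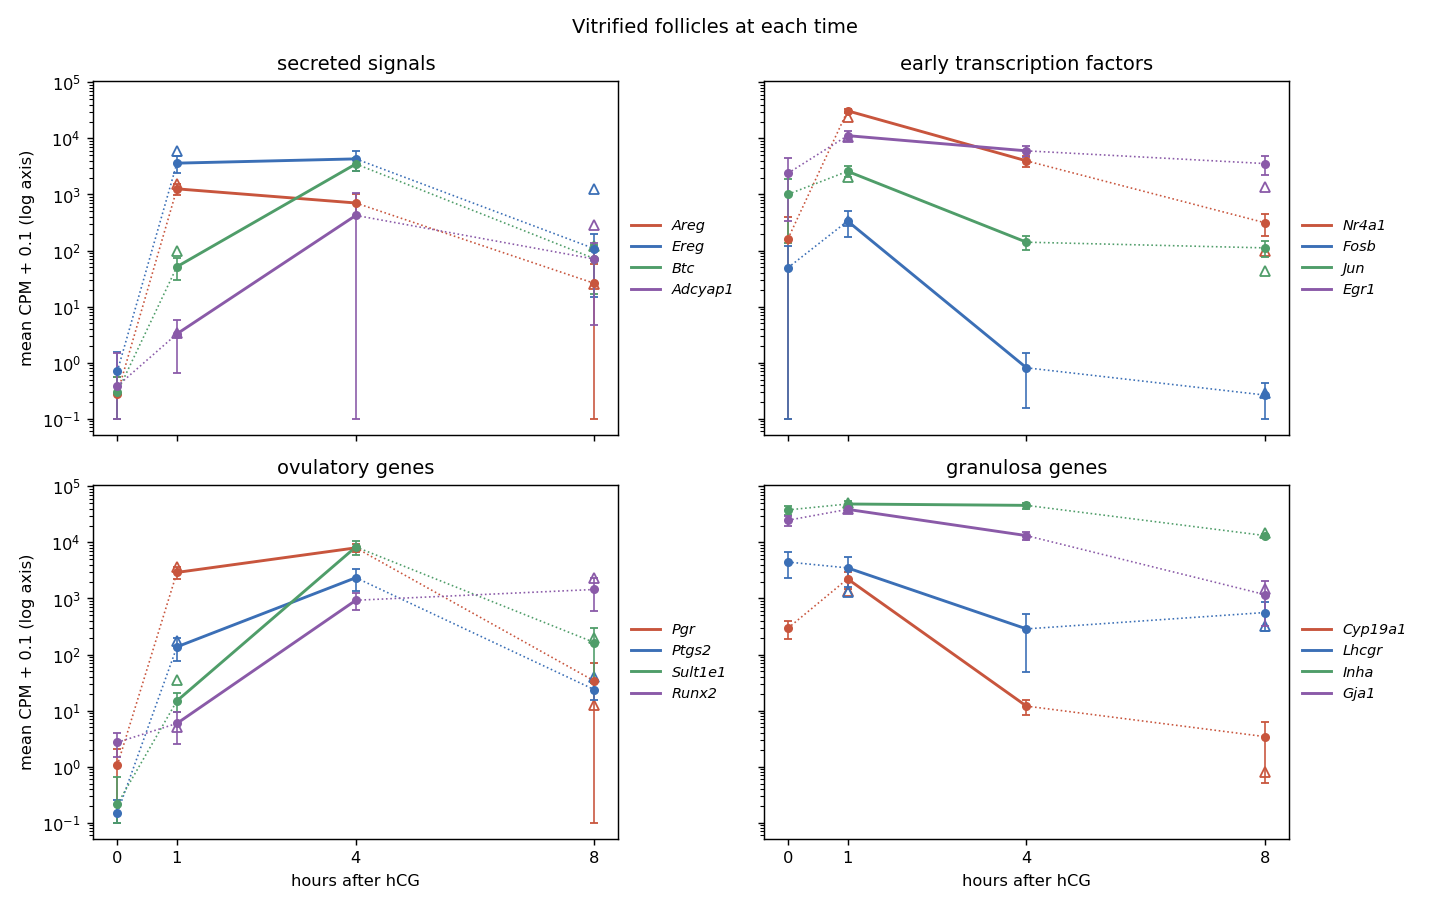
Mean level ± SD in vitrified follicles at 0, 1, 4 and 8 h after hCG (CPM, log axis, bars cut at 0.1) for 4 genes in each of 4 panels; solid lines join 1 h and 4 h on the shared plate, dotted lines the other steps, and open triangles are the means of the vitrified-only plate. Sult1e1, Ptgs2 and Btc are highest at 4 h, Nr4a1 and Fosb at 1 h, and Cyp19a1 is over 100 times lower at 4 h than at 1 h.

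The same step could be set beside fresh follicles of the plate, 6 at 1 h and 7 at 4 h, in 1 fit of 25 libraries with a term for the difference of the 2 steps. Of 8261 genes tested, 0 (0%) had a different step at an edgeR adjusted p of 0.05 or less, and 513 (6.21%) had an unadjusted p under 0.05. DESeq2 called 2 genes, Nfkbia and Sos2, edgeR without a filter on low counts called 2, Nfkbia and Slmap, and limma called 0. At an unadjusted p under 0.05 there were 736 with DESeq2, 1565 without the filter and 496 with limma. A gene that was not called was not shown to move alike in both. In this fit the steps, given as vitrified and fresh log2 change ± SE, were set side by side for Sult1e1 (9.22 ± 0.41 and 10.10 ± 0.39), Runx2 (7.39 ± 0.40 and 7.34 ± 0.38), Btc (6.19 ± 0.32 and 6.55 ± 0.31) and Cyp19a1 (-7.46 ± 0.32 and -7.77 ± 0.32). Nfkbia ranged from 7.70 to 16.7 CPM in vitrified and from 20.2 to 62.7 CPM in fresh follicles at 1 h, without overlap, and from 96.7 to 147 and from 72.7 to 145 CPM at 4 h, in the scaling of the 25 libraries. Its means went from 13.7 to 118 CPM in vitrified and from 39.5 to 110.1 CPM in fresh follicles. The steps were 3.10 ± 0.26 and 1.48 ± 0.22, a difference of 1.62 ± 0.32 (edgeR p = 2.02e-05, adjusted p = 0.167), the smallest p among the genes. Egfr (1.23 ± 0.28 and -0.25 ± 0.27), Fst (-4.92 ± 0.71 and -1.79 ± 0.63), Odc1 (0.52 ± 0.81 and 3.75 ± 0.88), Ptx3 (2.65 ± 0.82 and 5.59 ± 0.94) and Cebpa (-2.77 ± 0.54 and -0.45 ± 0.55) had steps that differed by over 1 on the log2 scale with adjusted p from edgeR of 0.582 or more. The vitrified 1 h library 4 holds the highest vitrified 1 h value of Fst, Odc1, Ptx3 and Cebpa.

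For the gene lists, immediate early genes had a median of -2.97 in vitrified and -2.65 in fresh follicles, cholesterol genes -1.74 and -1.61, ribosome biogenesis 1.23 and 1.46, and ATF4 targets 1.34 and 1.27. Estradiol and FSH-dependent genes had -2.21 and -2.41. The unfolded protein response list had -1.12 and -0.63, though the median of its members' own differences, vitrified minus fresh, was -0.12. These medians were compared as values, and no difference between them was tested.

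**Figure D4:**
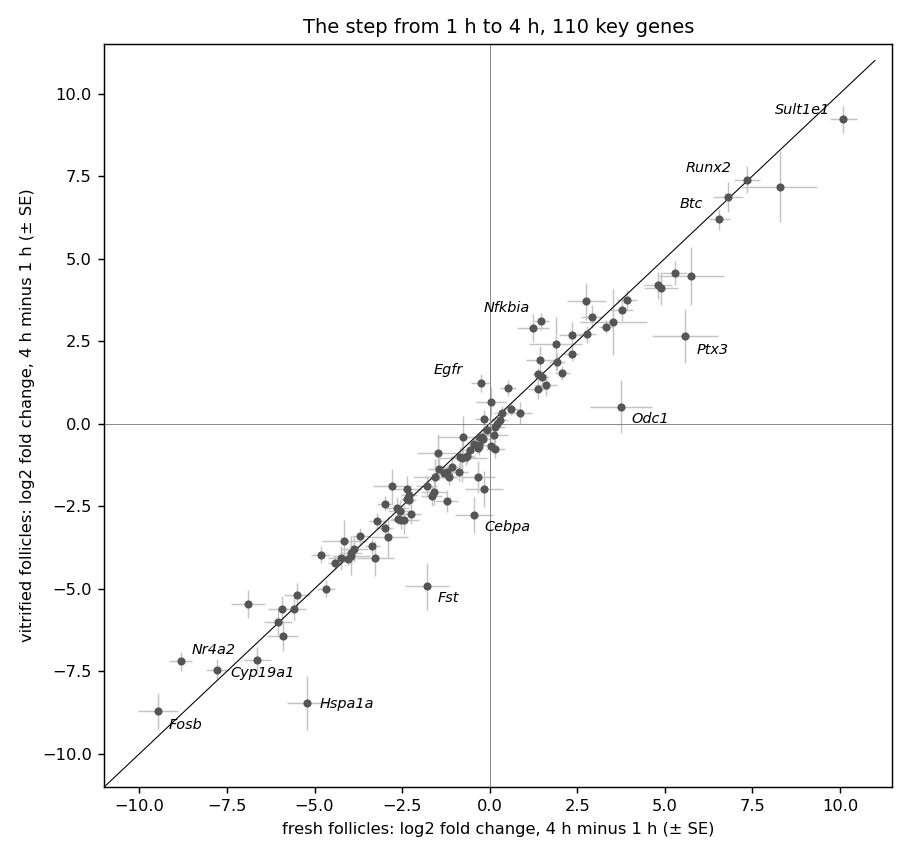
Change from 1 h to 4 h in fresh follicles (horizontal) and vitrified follicles (vertical), log2 ± SE from 1 edgeR fit of 25 libraries, for 110 genes of known role in the response; the line marks equal steps. Sult1e1 and Cyp19a1 lie near the line, and Nfkbia, Egfr and Odc1 lie off it without passing the adjusted test.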

How the data were processed

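The deposited gene table holds estimated counts for 21572 genes in 83 libraries, and a second deposited table holds the authors' log2(TPM + 1) values. Libraries were Smart-Seq2 with Nextera XT, paired-end, unstranded and without molecular identifiers, per the labels' protocols. The submitters' processing notes name Partek, Bowtie2, HISAT2, DESeq2 and the build mm10, without versions or roles. Which tool made which table is not stated in them. Without strand, a gene and its antisense partner cannot be told apart. Every column was mapped to a sample by its label, and groups were taken from the titles.

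Estimated counts were rounded to whole numbers. The 12 vitrified libraries of 1 h and 4 h were fitted alone with edgeR 4.0.16 in R 4.3.3 (TMM, filterByExpr with a minimum count of 10, robust quasi-likelihood test, Benjamini-Hochberg adjustment, called at an adjusted p of 0.05 or less). The SE is the absolute log2 change over the square root of F. The difference from fresh follicles was an interaction term over 25 libraries. Library measures were compared by exact two-sided permutation over 792 splits. limma 3.58.1 was run on the log2(TPM + 1) values, which understates changes of low genes, and DESeq2 1.42.0 on the rounded counts. TPM means were computed by inverting the deposited log2 values. The script was tested on simulated data in which far fewer genes changed than here. Of 94 genes changed by 1 on the log2 scale 29.8% were called, and of 86 changed by 2, 93.0%, with 2 false calls. A gene that was not called was thus not shown to be unchanged. Total counts per library were 1750720 to 5597290, and rare transcripts carry the largest counting error.

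Named genes were, among called genes, the 12 rises and 12 falls largest by fold without overlap and with a mean of at least 20 CPM, the 8 largest gains and losses in mean CPM, 121 genes of known role, and up to 3 called members per direction of each of 38 lists. Amhr2, Cbfb, Cxcr4, Esr1, Fdx1, Foxo1, Gclc, Gucy1a1, Impdh2, Junb, Lox, Mt2, Mvd, Myc, Prkar1a, Sphk1, Srebf1, Xbp1, Zfp36, Arl4d, Plekhd1, Sos2 and Slmap fell outside this rule and were chosen after their values were seen. The libraries, lists and tests were chosen with earlier results of these data known. Promoters were the 250 bases before RefSeq starts of GRCm38.p6 (5278 of 7323 tested genes matched), and gene positions are those of GENCODE vM21 on GRCm38.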

Additional observations from a re-analysis of the deposited data

Results flagged for a closer look

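Among 461 groups of 5 or 7 follicles tested, 28 held a follicle far from the others on the log2(CPM + 1) scale by Dixon's ratio at the 95% level. About 1 group in 20 is expected to do so by chance, and all genes of a time share their follicles. Values are in CPM, and the range of the other follicles of that time follows each. The 1 h library 4 was high for Cebpa at 77.9 (others 5.60 to 12.3), Lamc1 at 84.8 (others 6.43 to 13.5), Odc1 at 1425 (others 30.5 to 83.7), Prkar2b at 6314 (others 501 to 809) and Srxn1 at 752 (others 167 to 236). Far below the others in the 1 h library 4 were Atf4 at 368 (others 539 to 618), Ccn1 at 203 (others 391 to 453), Hsph1 at 3.59 (others 9.90 to 12.2) and Slco2a1 at 0.326 (others 2.42 to 3.48). The 4 h library 4 was high for Cox5a at 84 (others 63.4 to 69.6) and Smad3 at 73 (others 32 to 43). Far below the others in the 4 h library 4 were Hsph1 at 64 (others 106 to 135), Srxn1 at 5.82 (others 16.4 to 26.3) and Star at 4261 (others 7628 to 10339). The 1 h library 3 was high for Itih5 at 18.8 (others 4.15 to 5.06) and Nop2 at 8.48 (others 2.05 to 3.16). Far below the others in the 1 h library 3 were Abhd2 at 672 (others 1760.4 to 2355) and Dnajb9 at 180.4 (others 279 to 302). The 4 h library 6 was high for Fshr at 7.43 (others 0.424 to 2.04), Sfrp2 at 26.3 (others 11.2 to 16.1) and Wdr12 at 11.9 (others 3.39 to 5.32). Far above the others in the 1 h library 2 was Serpinb2 at 0.949 (others 0). The 1 h library 2 was low for Ephx2 at 2244 (others 4292 to 5069). Far above the others in the 4 h library 7 were Per2 at 0.761 (others 0) and Scarb1 at 13387 (others 2865 to 3608). The 4 h library 1 was low for Slc16a1 at 4.24 (others 9.41 to 13.1). Far above the others in the 4 h library 2 was Nfkbib at 29.9 (others 12.8 to 17.3). The 4 h library 5 was low for Gpx3 at 33 (others 89 to 121). The 1 h library 4 is the one with the high share of Gm10800, and the part of that share in these values was not tested.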

How the results depend on the processing

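Leaving out 1 library at a time gave 1880 to 2072 genes higher and 1890 to 2000 lower at 4 h, and 0 to 0 genes with a different step in vitrified and fresh follicles. A minimum count of 50 gave 1085 higher and 1089 lower, of 3378 tested, and a test against a log2 change of 1 gave 730 and 872. With no filter on low counts 3055 genes were lower, with limma 1051, and the step differed from that of fresh follicles for 2 genes with no filter and 2 with DESeq2. Over 24 alternative fits of 231 named and tested genes, 5154 values kept their direction and their side of the threshold, 208 lost the call, 11 gained one and 0 changed direction, and 160 genes kept both in every fit that tested them. The other 171 values are of genes that were not tested in that fit. Summing the 2 alike 4 h libraries, thinning to 1 total and leaving out Gm10800 (2005 higher and 2012 lower) were added after the data had been seen. Against the 9 libraries of 1 h on the other plate there were 2126 higher and 1953 lower of 6444, sharing 1648 and 1598 calls with 1 gene called in the opposite direction. The cause was not tested. No paired analysis was possible because the labels give plate positions and no replicate numbers, and the numbers used here follow accession order. Genes of under a few CPM, such as Hspa1a and Per2 at 4 h, are limited by depth.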
